A study of Mus musculus with 10 samples.

Results

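The genes described are 10 genes that mark tendon, ligament and periosteum, taken by name from each expression table: Scx, Tnmd, Mkx, Kera, Thbs1, Thbs2, Thbs3, Thbs4, Postn and Tnc. All 10 were found among the 22583 distinct gene names of the rib chondrocyte table and among the 22645 of the calvarial osteoblast table. The series sequenced 4 groups of mouse skeletal cells. The Col10+ group (3 libraries) held rib cells of Col10a1-mCherry tg mice that carried the reporter of hypertrophic cartilage, and the Col2+ group (3 libraries) held rib cells of Col2a1-ECFP tg mice that carried the general cartilage reporter. Both were ICR mice at postnatal day 1. The Runx2_cHom_KO and Runx2_cHet_KO groups (2 libraries each) were osteoblasts dissected and digested from frontal bone and rostral parietal bone of C57BL/6 embryos at E17.5. Their names read as homozygous and heterozygous conditional knockouts of Runx2, the transcription factor required for bone-forming cells. Every osteoblast library therefore carried a Runx2 knockout genotype, and the sources used here do not give the driver of the deletion. For the osteoblasts the labels name dissection and digestion and no sort.

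Tendon and ligament are ropes of collagen fibrils laid down by tenocytes. Scleraxis (Scx), a basic helix-loop-helix transcription factor, marks tendon progenitors, and the homeobox factor Mkx and the membrane protein tenomodulin (Tnmd) mark maturing tenocytes. Periostin (Postn), tenascin-C (Tnc) and the thrombospondins (Thbs1 to Thbs4) are matricellular proteins: they sit in the matrix and act on cells through receptors rather than as fibres. Periostin is named for the periosteum, the fibrous sheath of bone, which also feeds new osteoblasts into the bone surface.

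All values are FPKM, fragments scaled to transcript length and to all mapped fragments, so levels of different genes can be set side by side within a column. The chondrocyte table has 1 value per sort, with no replicate check, while the osteoblast table has a value for each library. Counts are not given and total depth is unknown. From the steps in the lowest values, 1 read of Runx2_cHet_KO library 1 was worth 0.795 to 0.844 of the FPKM that 1 read was worth in the other 3 osteoblast libraries, as a deeper library gives. Summed FPKM was 561935 and 565738 in the Runx2_cHom_KO libraries and 536770 and 567272 in the Runx2_cHet_KO libraries. Runx2 itself was at 32.9 and 32.6 FPKM in Runx2_cHom_KO and at 43.4 and 53.9 FPKM in Runx2_cHet_KO, with a limma adjusted p of 0.0707. A gene-level FPKM does not show which exons were lost. The labelled cell types were set against their markers. Summed over 10 cartilage genes, the level was 42096 FPKM in Col10+ and 62628 FPKM in Col2+, against 352 to 756 FPKM over 11 such genes in the osteoblast libraries. Col2a1 alone held 31532 FPKM of this in Col10+ and 44205 FPKM in Col2+, and its reporter defined the Col2+ sort. Summed osteoblast markers, Runx2 among them, were at 598 and 802 FPKM in Runx2_cHom_KO and at 1606 and 1149 FPKM in Runx2_cHet_KO. Most of this was Ibsp, at 392 and 589 FPKM in Runx2_cHom_KO and 1102 and 679 FPKM in Runx2_cHet_KO. Its change did not pass (limma adjusted p = 0.154).

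The most abundant of the 10 genes were matricellular members in both tissues, and the tendon transcription factors were among the lower ones in rib cartilage. The matricellular Thbs4 was low in places, at 0.897 FPKM in Col2+ and at 2.46 and 2.42 FPKM in Runx2_cHet_KO. In all 4 osteoblast libraries the highest 4 of the 10 genes were Thbs2, Thbs1, Postn and Tnc, in varying order. In both rib sorts Thbs1 was the highest of the 10, while Scx, Mkx and Kera lay under 3 FPKM. In Runx2_cHom_KO osteoblasts Thbs1 and Thbs4 rose and Tnc fell, by 2.71-fold, 7.97-fold and 2.08-fold. In the Col10+ sort Thbs4, Postn, Thbs2 and Tnc were higher by 33.2-fold, 12.6-fold, 5.61-fold and 3.14-fold.

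The osteoblast comparison asked how Runx2_cHom_KO cells differ from Runx2_cHet_KO cells. It used limma on log2(FPKM + 1), with Benjamini-Hochberg adjustment over 11909 genes, and calls needed both an adjusted p below 0.05 and a change of 1 or more on the log2 scale. All 10 genes passed the filter of 1 FPKM in at least 2 libraries. A total of 2 of the 10 rose and 1 fell, where 2.3% of all genes tested rose and 1.39% fell. The median log2 change was 0.53 over the 10 genes and -0.03 over all genes tested. In 7 of the 10 both Runx2_cHom_KO libraries lay above both Runx2_cHet_KO libraries, and in 1 both lay below. Across all genes tested these shares were 26.7% and 31.3%, together 58%. Every call depended on having both Runx2_cHom_KO libraries: without either one, limma called 0 of the 10, with 3 at an unadjusted p under 0.05 without library 1 and 4 without library 2. The changes themselves kept their direction: without library 1 and without library 2 they were 1.43 and 1.46 for Thbs1, 2.24 and 2.84 for Thbs4, and -1.15 and -0.94 for Tnc. The labels do not say that libraries came from separate embryos, so p-values measure the spread between libraries, which may be technical.

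**Figure D1:**
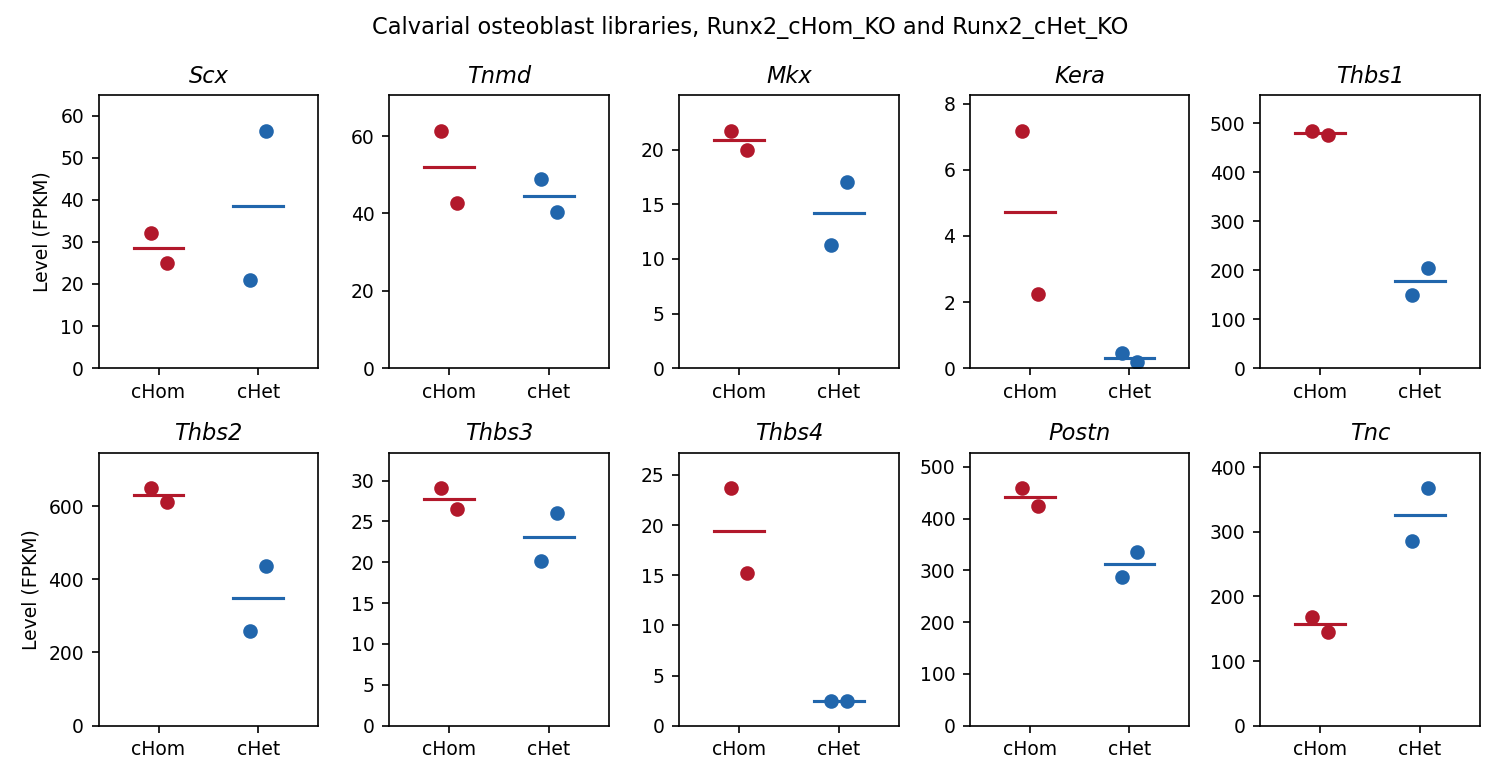
Levels of the 10 genes in FPKM (y axes, each from 0) in the calvarial osteoblast libraries; points are libraries, with Runx2_cHom_KO (red) left of Runx2_cHet_KO (blue), and lines are means of 2 libraries. Thbs1 and Thbs4 are higher and Tnc lower in both Runx2_cHom_KO libraries, while the groups overlap for Scx and Tnmd.

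Among the tendon regulators, Scx had 32.1 and 24.97 FPKM in Runx2_cHom_KO and 20.9 and 56.4 FPKM in Runx2_cHet_KO. The groups overlapped, because the 2 Runx2_cHet_KO libraries differed by 2.70-fold and enclosed both Runx2_cHom_KO values. The change of -0.27 (SE 0.52) did not pass (limma adjusted p = 0.785). Its direction hung on 1 library, with a change of 0.42 without Runx2_cHet_KO library 2. Without Runx2_cHet_KO library 1 the change was -0.97 (limma adjusted p = 0.0305, within a range of 0.0305 to 0.962 over all alternatives), still under the limit of 1. Scx lies within the span of Bop1, a ribosome biogenesis gene, in the RefSeq annotation, and the sources used here do not say whether counting used strand. Bop1 was at 4.30 and 5.75 FPKM in Runx2_cHom_KO and at 8.62 and 7.50 FPKM in Runx2_cHet_KO. Whether reads of Bop1 entered the Scx values was not tested.

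Mkx, which supports fibril growth in tendon, had 21.7 and 20.02 FPKM in Runx2_cHom_KO and 11.3 and 17.1 FPKM in Runx2_cHet_KO. Both Runx2_cHom_KO values were above the others, but the change of 0.55 (SE 0.20) did not pass (limma adjusted p = 0.154). Tnmd, a later tenocyte marker, had 61.4 and 42.7 FPKM in Runx2_cHom_KO and 48.9 and 40.3 FPKM in Runx2_cHet_KO. Its groups overlapped, and the change of 0.20 (SE 0.20) did not pass (limma adjusted p = 0.571). Without Runx2_cHom_KO library 1 it was -0.06. Kera encodes keratocan, a small proteoglycan that spaces collagen fibrils in cornea and tendon. Kera had 7.18 and 2.26 FPKM in Runx2_cHom_KO against 0.448 and 0.18 FPKM in Runx2_cHet_KO. Its groups did not overlap, but the Runx2_cHom_KO libraries differed widely, and the log2 change of 1.98 (SE 0.45) did not pass (limma adjusted p = 0.0642). Kera passed the filter on low values only through Runx2_cHom_KO, where it was high. With a pseudocount of 0.1 it passed the test (3.40, limma adjusted p = 0.0472, within a range of 0.0472 to 0.138 over the alternatives).

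Thrombospondins 1 and 2 are the trimeric members of their family, and Thbs1 is also known for activating latent TGF-beta. Thbs1 had 484 and 475 FPKM in Runx2_cHom_KO, against 150.01 and 205 FPKM in Runx2_cHet_KO. The Runx2_cHom_KO libraries lay close together and well above both others. The mean was 480 ± 6.34 FPKM in Runx2_cHom_KO and 177 ± 38.6 FPKM in Runx2_cHet_KO (SD, n = 2 each), 2.71-fold higher, and the rise of 1.45 (SE 0.16) passed (limma adjusted p = 0.0166). Thbs2, the most abundant of the 10 genes in the Runx2_cHom_KO libraries, had 648 and 611 FPKM there and 260 and 435 FPKM in Runx2_cHet_KO. These groups did not overlap either, but the change of 0.90 (SE 0.25) did not pass (limma adjusted p = 0.0928). Without Runx2_cHet_KO library 2 it was 1.27 (limma adjusted p = 0.00447, within a range of 0.00447 to 0.409). Without Runx2_cHet_KO library 1 it was 0.53, under the limit of 1 (limma adjusted p = 0.0304).

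Thrombospondins 3 and 4 form pentamers, as does cartilage oligomeric matrix protein (Comp), and Thbs4 is abundant in tendon and muscle. Thbs4 had 23.6 and 15.3 FPKM in Runx2_cHom_KO and 2.46 and 2.42 FPKM in Runx2_cHet_KO. Both Runx2_cHet_KO libraries were at nearly the same low level, and both Runx2_cHom_KO libraries were far above it. With 19.5 ± 5.94 FPKM in Runx2_cHom_KO and 2.44 ± 0.0293 FPKM in Runx2_cHet_KO (SD, n = 2 each) it was 7.97-fold higher, and the rise of 2.54 (SE 0.22) passed (limma adjusted p = 0.0113). Thbs3 had 29.0 and 26.6 FPKM in Runx2_cHom_KO and 20.1 and 26.1 FPKM in Runx2_cHet_KO. The groups were separated by less than 1 FPKM, and the change of 0.27 (SE 0.15) did not pass (limma adjusted p = 0.321). A second row of the osteoblast table that also bears the name Thbs3 was at 1.62 and 1.52 FPKM in Runx2_cHom_KO and at 0.9996 and 2.65 FPKM in Runx2_cHet_KO and was not used.

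Periostin had 458 and 425 FPKM in Runx2_cHom_KO and 288 and 336 FPKM in Runx2_cHet_KO. Both Runx2_cHom_KO values were higher, but the change of 0.50 (SE 0.12) did not pass and was under the limit of 1 (limma adjusted p = 0.0711). Tnc moved the other way. It had 168 and 145 FPKM in Runx2_cHom_KO, against 286 and 367 FPKM in Runx2_cHet_KO. With 157 ± 16.6 FPKM in Runx2_cHom_KO and 326 ± 57.5 FPKM in Runx2_cHet_KO (SD, n = 2 each) it was 2.08-fold lower, and the fall of -1.05 (SE 0.16) passed (limma adjusted p = 0.026). The call was close to both limits: it was lost with the replicate block (adjusted p = 0.0592), without the filter (0.0549), with plain variances (0.0547), and on size without Runx2_cHet_KO library 2 (-0.87). Over all alternatives its limma adjusted p lay between 0.00843 and 0.251.

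**Figure D2:**
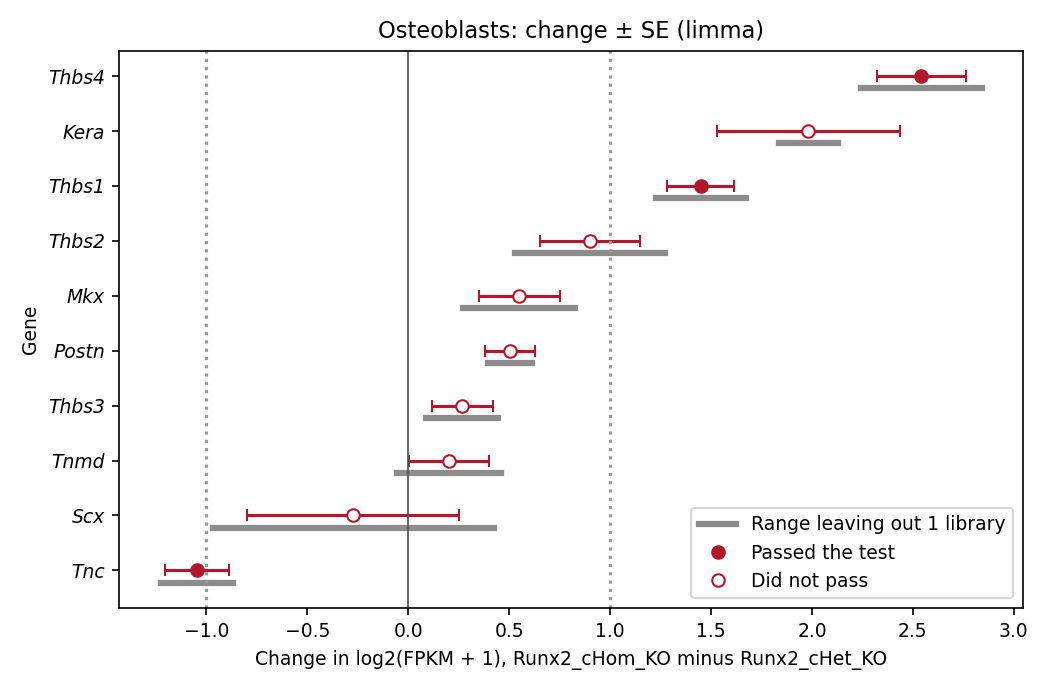
Change in log2(FPKM + 1), Runx2_cHom_KO minus Runx2_cHet_KO, for each gene (x axis; circles with limma SE, filled where the test passed). Grey bars span the values with 1 library left out, 4 for each gene and 2 for Kera, and dotted lines mark a change of 1; the bars of Scx and Tnmd cross 0.

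The members of the tenascin family other than Tnc did not share one direction. Tnn (tenascin-W), which is known from periosteum and bone, had 30.1 and 21.1 FPKM in Runx2_cHom_KO and 114 and 300.1 FPKM in Runx2_cHet_KO. Its groups were far apart, but the Runx2_cHet_KO libraries differed by 2.64-fold and the change of -2.83 did not pass (limma adjusted p = 0.0787). Tnxb, the tenascin of loose connective tissue, had 34.0 and 33.2 FPKM in Runx2_cHom_KO and 1.68 and 4.63 FPKM in Runx2_cHet_KO, and its rise of 3.16 passed (limma adjusted p = 0.0176). Tnr was at or under 0.122 FPKM in every osteoblast library and was not tested.

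In newborn rib cartilage the comparison asked how Col10+ cells differ from Col2+ cells. A gene was counted as past the limit where log2(FPKM + 1) differed by at least 1 and the higher sort had at least 5 FPKM. Of the 10 genes, 7 reached that level in a sort, 4 were higher in Col10+ and 0 lower. Thbs4 and Thbs2, at 0.897 and 3.43 FPKM in Col2+, reached it only in Col10+, where they were high. Here and in the rib counts of other lists, a gene under that level in 1 sort entered only through the higher one. Among 8354 genes at that level, 13.8% were higher and 14.2% lower. The median log2 difference was 1.61 over those 7 genes and -0.31 over all 8354. Across genes the deposited columns were offset, with Col10+ lower. With the columns scaled to a median ratio of 1, the difference of Thbs1 went from 0.10 to 0.41 and Tnmd also passed the limit. Of the genes then past it, 70.5% were higher, against 49.2% as deposited. With 1 value per sort no test was made.

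The pentamer former Thbs4 had 29.8 FPKM in Col10+ and 0.897 FPKM in Col2+, a log2 difference of 4.02 and the largest of the 10. Postn had 176 FPKM in Col10+ and 14.0 FPKM in Col2+, a difference of 3.57. For Thbs2 the values were 19.2 FPKM in Col10+ and 3.43 FPKM in Col2+, a 5.61-fold difference. Tnc, which marks perichondrium and forming joints, was 3.14-fold higher, with 67.6 FPKM in Col10+ and 21.5 FPKM in Col2+. The other thrombospondins of the rib were abundant in both sorts. Thbs1 had 318 FPKM in Col10+ and 296 FPKM in Col2+, and Thbs3 had 91.4 FPKM in Col10+ and 173 FPKM in Col2+, 1.89-fold lower and just inside the limit.

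Of the tenocyte genes, Tnmd alone reached 5 FPKM in the rib. It had 19.2 FPKM in Col10+ and 9.89 FPKM in Col2+, a log2 difference of 0.89. Scx was at 1.89 FPKM in Col10+ and 2.77 FPKM in Col2+, and Mkx at 1.35 FPKM in Col10+ and 0.839 FPKM in Col2+. Bop1, which overlaps Scx, was higher than Scx in both sorts, at 14.5 FPKM in Col10+ and 28.6 FPKM in Col2+. Kera had 1.0098 FPKM in Col10+ and 0.0136 FPKM in Col2+, both too low for the limit. None of Scx, Mkx and Kera reached the 5 FPKM that the count required.

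**Figure D3:**
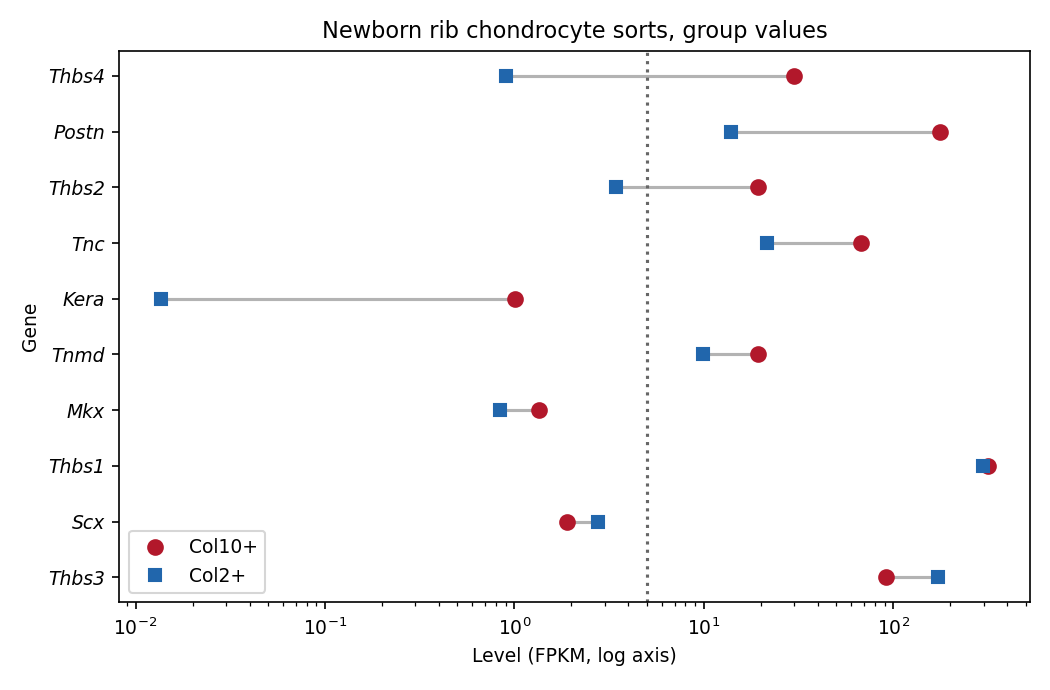
Authors' group values in FPKM (log x axis) for the Col10+ (red circles) and Col2+ (blue squares) rib sorts, 1 value per sort and gene, ordered by the log2 difference; the dotted line marks 5 FPKM. Thbs4, Postn, Thbs2 and Tnc are higher in Col10+ by more than the limit, and Scx and Thbs3 are lower in Col10+ by less than it.

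Promoter sequences from RefSeq (build GRCm38.p6) matched 7 of the 10 genes. The 250 bases before the transcription start are shown for the 4 genes that were past the limit in Col10+, of which Thbs4 and Tnc were also called in the osteoblasts. For Postn and Tnc the more downstream of 2 annotated starts was taken. Capitals mark the E-box CANNTG, the core bound by helix-loop-helix factors such as Scx, and the TATA motif TATAAA, each on either strand. The windows are chr13:92794819-92795068 (minus strand) for Thbs4, chr17:14694263-14694512 (minus strand) for Thbs2, chr3:54360857-54361106 (plus strand) for Postn and chr4:64046937-64047186 (minus strand) for Tnc.
Thbs4: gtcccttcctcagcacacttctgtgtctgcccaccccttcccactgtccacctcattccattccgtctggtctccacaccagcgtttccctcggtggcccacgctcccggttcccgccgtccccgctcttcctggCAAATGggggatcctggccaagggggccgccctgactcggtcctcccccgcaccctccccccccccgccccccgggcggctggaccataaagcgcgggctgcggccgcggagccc
Thbs2: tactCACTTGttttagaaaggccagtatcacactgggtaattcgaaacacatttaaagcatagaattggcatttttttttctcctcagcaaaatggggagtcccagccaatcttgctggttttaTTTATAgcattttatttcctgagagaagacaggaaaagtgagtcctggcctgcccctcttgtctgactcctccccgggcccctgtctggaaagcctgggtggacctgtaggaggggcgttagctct
Postn: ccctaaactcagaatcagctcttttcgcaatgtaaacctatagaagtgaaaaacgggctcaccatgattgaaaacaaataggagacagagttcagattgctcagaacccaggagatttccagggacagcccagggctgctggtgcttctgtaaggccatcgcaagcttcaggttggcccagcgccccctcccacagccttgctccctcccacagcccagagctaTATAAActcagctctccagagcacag
Tnc: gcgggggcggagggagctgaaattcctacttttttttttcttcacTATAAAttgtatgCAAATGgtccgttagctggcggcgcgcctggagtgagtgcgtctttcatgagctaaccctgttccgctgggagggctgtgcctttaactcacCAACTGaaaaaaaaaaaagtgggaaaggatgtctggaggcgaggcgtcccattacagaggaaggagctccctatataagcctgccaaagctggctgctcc
The Postn window held TATAAA with its first base 26 bases before the start. Tnc held it 205 bases before, and Thbs2 held the opposite strand form TTTATA 126 bases before. Thbs4 had no TATAAA. These are exact matches, and near matches were not searched. E-boxes numbered 2 in Tnc, 1 in Thbs2, 1 in Thbs4 and 0 in Postn. Among 32851 RefSeq promoter windows of the same length, 66.2% held an E-box and 12.4% a TATAAA on either strand. The Runx core TGTGGT was in none of the 4 windows on either strand, nor in those of Kera, Thbs3 and Tnmd, and in 14.0% of all windows. That says only that these letters are not in these 250 bases.

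Among Thbs1 to Thbs4 the most abundant was Thbs1 in the rib sorts and Thbs2 in the osteoblast libraries. In the rib sorts Thbs1 held 69.4% of the summed FPKM of Thbs1 to Thbs4 in Col10+ and 62.6% in Col2+, and Thbs3 held 19.95% in Col10+ and 36.5% in Col2+. Thbs4 held 6.5% in Col10+ and 0.19% in Col2+. In the osteoblasts Thbs2 held the most, with 54.7% and 54.1% in Runx2_cHom_KO and 60.1% and 65.1% in Runx2_cHet_KO. Thbs1 followed with 40.9% and 42.1% in Runx2_cHom_KO and 34.7% and 30.6% in Runx2_cHet_KO. Neither pair overlapped, and no test of a share was made. The summed level of the 4 genes was 1185 and 1128 FPKM in Runx2_cHom_KO and 432 and 669 FPKM in Runx2_cHet_KO. Comp, a further member of the family, stood above all 4 in the rib, at 1965 FPKM in Col10+ and 1321 FPKM in Col2+. That was 81.1% and 73.6% of the summed FPKM of the 5 genes. In the skull cells Comp was at 13.9 and 28.0 FPKM in Runx2_cHom_KO and at 2.91 and 9.99 FPKM in Runx2_cHet_KO, and its change of 1.67 did not pass (limma adjusted p = 0.226). The tissues were prepared with different library kits and differ in age and strain, and the tables were normalized separately, so these differences cannot be told apart from one of tissue.

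**Figure D4:**
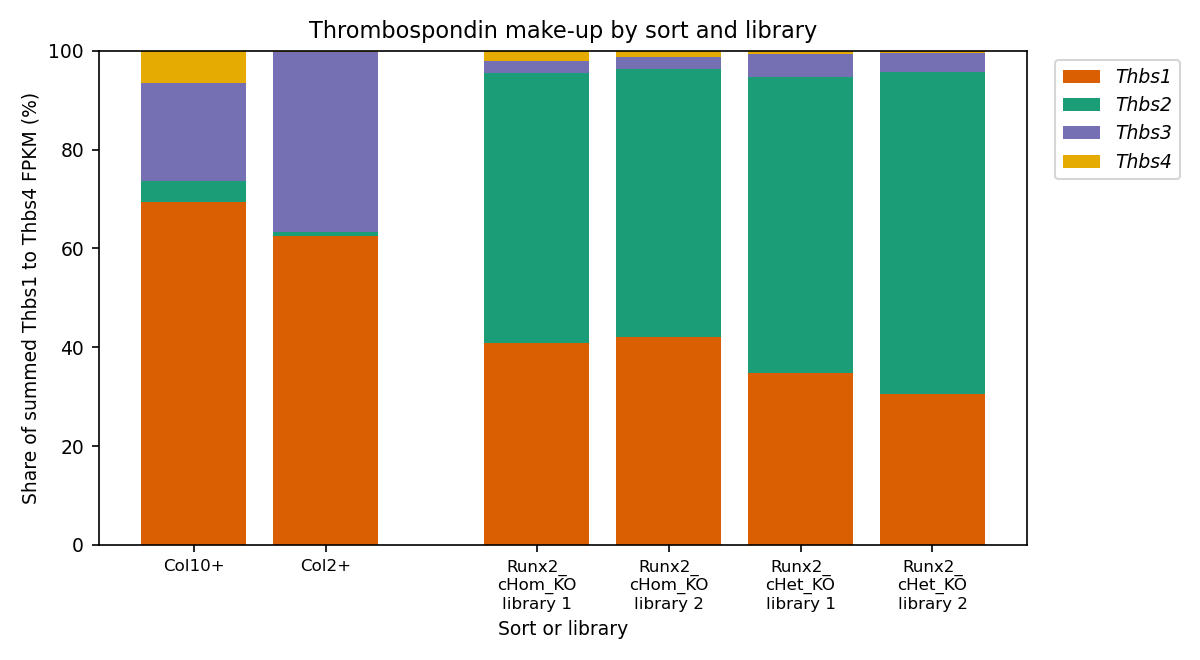
Share of each gene in the summed FPKM of Thbs1 to Thbs4 (y axis, percent; stacked bars) in each rib sort and each osteoblast library. Thbs1 and Thbs3 fill most of the rib bars and Thbs2 over 50% of each osteoblast bar; the Thbs1 part is 40.9% and 42.1% in Runx2_cHom_KO and 34.7% and 30.6% in Runx2_cHet_KO.

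The other genes of tendon, ligament and periosteum were counted by list. Of all genes tested in the osteoblasts, 2.3% rose and 1.39% fell, and 12.7% were higher and 14.1% lower at an unadjusted p under 0.05. In the rib 13.8% of genes at 5 FPKM or more were past the limit as higher and 14.2% as lower. Of 10 tested regulators and inducing signals of tendon, 1 rose and 0 fell in Runx2_cHom_KO, with 7 and 0 at an unadjusted p under 0.05. The one that rose was Egr1, an early response factor that acts in tendon (change 1.05, limma adjusted p = 0.0307). In the rib sorts 3 of 8 were lower in Col10+ and 0 higher: Egr2, Egr1 and Gdf5. Egr2, a factor related to Egr1, had 8.04 FPKM in Col10+ and 73.8 FPKM in Col2+. Of 20 fibril matrix genes 3 rose and 0 fell in Runx2_cHom_KO. They were Tnxb, Cilp, a matrix protein of cartilage and tendon (2.28, limma adjusted p = 0.0267), and Col14a1, a collagen on fibril surfaces (1.59, limma adjusted p = 0.0191). Cilp, at 7.82 and 3.46 FPKM in Runx2_cHom_KO and 0.186 and 0.3999 FPKM in Runx2_cHet_KO, passed the filter on low values only through Runx2_cHom_KO, where it was high. The main tendon collagen Col1a1 did not pass (-0.39, limma adjusted p = 0.117). In the rib 5 of 18 were higher and 5 lower in Col10+. Col1a1 had the largest difference, with 3305 FPKM in Col10+ and 10.6 FPKM in Col2+. The collagen crosslinking enzyme Lox had 57.4 FPKM in Col10+ and 4.86 FPKM in Col2+.

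Of 16 genes of periosteum and fibrous skeletal progenitors, limma called 0 in the osteoblasts, with 6 higher and 2 lower at an unadjusted p under 0.05, where the shares over all genes were 12.7% and 14.1%. In the rib 3 of 10 were higher in Col10+ and 0 lower: the protease Ctsk, which osteoclasts also express, the cadherin Cdh11 and the smooth muscle actin Acta2. Among 15 tested matricellular genes outside the 10, 5 rose and 1 fell in Runx2_cHom_KO, where 3.69% of all genes tested were called. The largest rises were those of Tnxb, Sparcl1 and Smoc2, and the one that fell was Spp1, which encodes osteopontin (-2.33, limma adjusted p = 0.00961). Smoc2, a calcium-binding matrix protein, is the annotated neighbour of Thbs2 and had 43.4 and 46.5 FPKM in Runx2_cHom_KO and 11.2 and 14.0 FPKM in Runx2_cHet_KO. In the rib 2 of 11 were higher and 5 lower in Col10+, where 28% of genes at 5 FPKM or more passed the limit in either direction. Smoc2 was among the lower ones, at 45.3 FPKM in Col10+ and 138 FPKM in Col2+, while Thbs2 was higher. Tnn was among the higher ones, at 16.9 FPKM in Col10+ and 1.87 FPKM in Col2+.

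Integrins, syndecans, Cd36 and Cd47 are among the receptors through which these proteins act. Of 17 tested receptor genes 1 rose and 0 fell in Runx2_cHom_KO, with 3 higher and 1 lower at an unadjusted p under 0.05. Those counts lie near the shares of all genes tested, of which 3.69% were called and 12.7% and 14.1% were higher and lower at that p. It was Egfr, a growth factor receptor to which tenascin-C repeats can bind (1.23, limma adjusted p = 0.0133). Cd47, the receptor of the thrombospondin carboxyl end, did not pass (0.35, limma adjusted p = 0.17). In the rib 3 of 14 were higher and 3 lower in Col10+, where 13.8% and 14.2% of all genes at that level were. The thrombospondin receptor Cd36, which macrophages and endothelium also carry, was at 27.9 FPKM in Col10+ and 0.0208 FPKM in Col2+. The integrin subunits Itga3 and Itga5 and the syndecan Sdc4 were lower, Itga5 with 57.4 FPKM in Col10+ and 201 FPKM in Col2+.

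A search across 6408 genes asked which others had a pattern like that of Scx over the 6 columns, each table centred on its own mean. The nearest were Efr3a, Mrps24 and Mrps35, with root mean square differences of 0.15, 0.17 and 0.21 in log2 FPKM. Each was highest in Runx2_cHet_KO library 2 among the osteoblast libraries, as Scx was. For Tnmd, among 6407 genes, they were Tsku, Tradd and Golph3l, at 0.06, 0.07 and 0.08. With 6 columns, such nearness is a description.

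Markers of other cells moved with the same comparisons. In bulk libraries fewer cells of a type and less RNA per cell cannot be told apart. Of 8 markers of loose connective tissue fibroblasts 5 rose (2.3% of all genes tested did) and 0 fell in Runx2_cHom_KO. Their summed level was 408 and 381 FPKM in Runx2_cHom_KO and 111 and 169 FPKM in Runx2_cHet_KO. Dpp4, among those that rose, was at 0.473 and 1.99 FPKM in Runx2_cHet_KO. It passed the filter on low values only through Runx2_cHom_KO, where it was high. Summed over 12 skeletal muscle markers, the level was 53.8 and 69.1 FPKM in Runx2_cHom_KO and 4.01 and 5.99 FPKM in Runx2_cHet_KO. None of the 12 was listed at 0 in Runx2_cHom_KO, while 4 and 3 were in the Runx2_cHet_KO libraries, Myf5 and Ckm in both. The 8 muscle markers that passed the filter all rose, and most passed only through their Runx2_cHom_KO level. Summed endothelial markers were at 62.9 and 50.04 FPKM in Runx2_cHom_KO and at 25.3 and 7.62 FPKM in Runx2_cHet_KO. Of 10 osteoblast markers 6 fell and 0 rose, where 1.39% of all genes tested fell and 2.3% rose. Among those that fell, Bglap, Bglap2 and Dmp1 passed the filter on low values only through Runx2_cHet_KO, where they were high. Macrophage markers summed to 71.2 and 85.4 FPKM in Runx2_cHom_KO, and to 430.1 and 63.4 FPKM in Runx2_cHet_KO, so Runx2_cHet_KO library 1 stood apart. Without that library the changes were 1.23 for Thbs1, 2.55 for Thbs4 and -1.23 for Tnc, which does not test the part of macrophages. Summed meningeal markers were at 179 and 183 FPKM in Runx2_cHom_KO and at 123 and 86.7 FPKM in Runx2_cHet_KO. Of the 6 tested, 1 rose, the forkhead factor Foxc1 (1.38, limma adjusted p = 0.0138), and 4 were higher at an unadjusted p under 0.05. The shares of all genes tested were 2.3% and 12.7%. Of 3 epithelial markers tested, 2 rose, where 2.3% of all genes tested did. All 3 passed the filter on low values only through Runx2_cHom_KO, where they were high. The epithelial list summed to 9.74 and 10.8 FPKM in Runx2_cHom_KO and to 1.89 and 2.01 FPKM in Runx2_cHet_KO. The part of these cells in the changes of Thbs1, Thbs4, Kera and Tnc was not tested.

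Markers of other cells also differed between the rib sorts. Summed macrophage markers were at 1901 FPKM in Col10+ and 3.62 FPKM in Col2+, neutrophil markers at 3941 FPKM in Col10+ and 0.262 FPKM in Col2+. Endothelial markers summed to 95.6 FPKM in Col10+ and 0.398 FPKM in Col2+, and osteoclast markers to 375 FPKM in Col10+ and 22.5 FPKM in Col2+. Osteoblast markers summed to 556 FPKM in Col10+ and 32.5 FPKM in Col2+. Bulk values do not show whether these were read in osteoblasts or in the sorted Col10+ cells themselves. Fibroblast markers summed to 52.3 FPKM in Col10+ and 15.4 FPKM in Col2+. Of these, Col15a1 and Fbln1 had 18.1 and 6.36 FPKM in Col10+ and 11.2 and 3.95 FPKM in Col2+. The others ranged from 0.422 to 8.05 FPKM in Col10+ and from 0.0194 to 0.0720 FPKM in Col2+. All 6 hypertrophic markers were past the limit as higher in Col10+, where 13.8% of genes at 5 FPKM or more were. Col10a1 is among the 6, and its reporter defined the Col10+ sort, so its difference was set by the sort. Among 8 neutrophil markers 4 were listed at 0 in Col2+, as were the endothelial Cdh5 and Emcn. Whether the higher Postn, Thbs4, Thbs2 and Tnc of the Col10+ sort came with other cells or from the sorted cells themselves was not tested.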

How the data were processed

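RNA from 10 mouse libraries was measured. Per the labels' protocols, the TruSeq kit served for the chondrocytes (100 ng RNA) and the SMARTer Stranded Pico kit for the osteoblasts (1.7 ng). The authors computed the deposited FPKM values, per the file headers, with 1 value for each chondrocyte group and 1 for each osteoblast library. The sources used here do not say how replicates were combined. TopHat2 2.1.0, Cufflinks, Cuffdiff 2.2.1 and build mm9 are named in the submitters' processing notes. The chondrocyte table held 1 further value column, which matched no sample and was not used.

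Rows without a gene name (3444 in the chondrocyte table, with 17.0% of the Col10+ and 8.48% of the Col2+ total) and rows whose name had become a date (25 and 26) were left out. Of several rows with a name, the one with the highest mean was kept. Tests used limma 3.58.1 in R 4.3.3 on log2(FPKM + 1) with trended and robust variances, over genes reaching 1 FPKM in 2 or more libraries, and were checked on simulated data. The log2 scale understates changes of low genes. Depth is unknown, so no counting interval was computed. Alternatives were another pseudocount, filter, scaling, variance model, a replicate block and leaving out each library. The 10 genes, 5 lists of related genes and 14 marker lists were chosen with earlier results of these data known. All 10 genes are named, and up to 4 called members of each list, those with the largest changes. Genes named beyond this were picked with their values in view. Examples are Col1a1, Cd47, Comp, Tnn, Tnr, Ibsp and Bop1 in the osteoblasts and Col15a1 and Fbln1 in the rib. The 10 genes matched RefSeq symbols, used for names and promoters only.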

Additional observations from a re-analysis of the deposited data

How the results depend on the processing

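The 2 rises and 1 fall among the 10 genes rest on 2 libraries a group. Of 128 changes of single genes under alternatives, 113 kept their direction and side of the call. The filter, minimum level, block and variance settings left the log2 changes themselves unaltered, so under these only the call could move. The call was lost in 10, all of them changes of Thbs1, Thbs4 or Tnc, the genes called in the osteoblasts. Of 26 counts under alternatives, 21 stayed within 1.5 times the count reported; among these the calls ran from 2 to 4 of the 10 in the osteoblasts and from 4 to 5 in the chondrocytes. Leaving out 1 library gave between 0 and 3 called among the 10 and between 0 and 619 among all genes, against 439 with every library; fewer libraries enter such a fit, and the lone library of a group is assumed to vary like the others. Without either Runx2_cHom_KO library the calls were 0 and 1 over all genes, with 1570 and 1679 at an unadjusted p under 0.05. Without the filter on low values 248 genes were called, with 18312 tested in place of 11909. The change of Scx turned to 0.42 without Runx2_cHet_KO library 2 and that of Tnmd to -0.055 without Runx2_cHom_KO library 1, and with 1 library left out they spanned -0.97 to 0.42 and -0.055 to 0.46. Kera could not be fitted without either Runx2_cHom_KO library, since it then failed the filter. The labels give the osteoblast groups the same replicate numbers but no shared litter or day, and same-numbered libraries did not deviate together (correlation -0.05 across genes). With the number as a replicate block 293 genes and 2 of the 10 were called, Thbs1 and Thbs4. In the chondrocytes the count past the limit was 4 of the 10, and 5 with scaled columns, where Tnmd passed (1.19). Unknown depth limits what low values such as Kera in Runx2_cHet_KO or Scx in the rib can show.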
